A study of Homo sapiens with 6 samples.

Results

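The genes described here encode collagens, laminin chains, other proteins of the extracellular matrix and the enzymes that modify or crosslink collagen, measured by RNA-sequencing in MDA-MB-231 cells after knockdown of YAP1. Members were chosen by symbol and level: protein-coding genes named in the form of COL1A1 or as LAMA, LAMB or LAMC with a number, together with 17 further matrix genes, were kept where their mean over the 6 libraries was at least 0.5 FPKM (a read level that is corrected for the length of a transcript and for the size of a library). Of 73 genes with such symbols, 40 passed, among 14770 genes of any kind that passed the same minimum and 60612 gene identifiers in all. MDA-MB-231 is an established human triple-negative breast cancer (TNBC) cell line. The groups were Sh-NC, a control short hairpin RNA in cells whose genotype is labelled wild type, and Sh-YAP1, a hairpin against YAP1 labelled as a YAP1 knockdown, with 3 libraries each from day 3 and no further treatment. Both groups share the cell line, and the paper read for these data, whose methods name another deposit for its RNA-sequencing and which was matched by the labels, describes hairpins that were transfected and stably expressed. The number of hairpins per gene, and whether each line was 1 clone or a pool, are not given in the sources used here. The paper states in general that its data came from independent experiments, but nothing in the labels says that these libraries came from separate cultures, so p-values measure the spread between these libraries, which may be technical.

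The extracellular matrix has a basement membrane of laminin and type IV collagen networks under epithelia, and an interstitial matrix of fibrillar collagens, fibronectin and fibrillin microfibrils around stromal cells. Collagen chains are hydroxylated on proline by the P4HA enzymes and on lysine by the PLOD enzymes inside the cell, and the secreted lysyl oxidases (LOX and the LOX-like enzymes) then crosslink collagen and elastin. YAP1 is a transcriptional co-activator that binds DNA through TEAD factors and is known to respond to the stiffness of the matrix, and CCN1 and CCN2, both secreted matricellular proteins, are widely used as its target genes.

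YAP1, the targeted gene (ENSG00000137693, chromosome 11), was at 28.1, 26.2 and 22.9 FPKM in the Sh-NC libraries 1 to 3 and at 3.35, 2.67 and 2.58 FPKM in the Sh-YAP1 libraries 1 to 3, the order used for all values below. It fell by 2.79 on the log2 scale of FPKM + 1 (standard error, SE, 0.117, Benjamini-Hochberg adjusted p = 0.0018 from limma, adjusted across the 14770 genes tested, as are all adjusted p below). CCN2 was at 236, 241 and 229 FPKM in Sh-NC and at 193, 202 and 214 FPKM in Sh-YAP1, without overlap and with a log2 fold change of -0.21 (adjusted p = 0.13, limma), and CCN1 was at 115, 95.8 and 117 against 105, 108 and 113 FPKM, where the groups overlapped. The mesenchymal marker VIM was at 1645 to 2303 FPKM, the epithelial marker CDH1 at most at 0.49 FPKM and EPCAM at 2.43 to 3.27 FPKM. Of the receptors that define the triple-negative class, ESR1 and PGR were at most at 0.07 and 0.01 FPKM, while ERBB2 was at 14.3 to 18.1 FPKM. Markers of other cells were low, with PTPRC, VWF and CDH5 at most at 0.04 FPKM, CD3E at 0 and PECAM1 at 0.76 to 1.70 FPKM, except for CD68 at 56.2 to 80.2 FPKM. The number of genes at 1 FPKM or more was 13037 to 13219 per library and the sum of FPKM was 467493 to 475116. The values come without read counts, so the depth of a library is unknown and no interval for counting error is given.

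Members that passed the test were 2 enzymes and 1 glycoprotein. Crosslinking enzymes LOXL1 and LOXL4 fell, with ratios of mean FPKM in Sh-YAP1 to Sh-NC of 0.74 and 0.65, and FBN1, which encodes the microfibril protein fibrillin-1, rose with a ratio of 1.41. No collagen or laminin gene had an adjusted p under 0.05. An adjusted p under 0.05 (limma) was reached by 3 of the 40 members (7.50%), beside 3.38% of all genes tested, of which 1.75% were higher and 1.62% lower in Sh-YAP1. These counts depended on the libraries and the fit, since leaving out any 1 library gave 0 to 1 members and 78 to 171 genes in place of 3 and 499, and the replicate block gave 0 members and 1 gene. The 3 values of a group did not overlap with the 3 of the other in 13 members (32.5%, 7 higher and 6 lower in Sh-YAP1), beside 29.4% of all genes (14.6% higher and 14.7% lower), so the share of members without overlap was close to that of all genes. Of these 13, COL1A2 and LAMA2 had passed the minimum of 0.5 FPKM through 1 group alone. Median log2 fold change was 0.03 over the members and 0.00 over all genes, 23 members were higher and 17 lower, and single values ran from -0.91 for COL1A2 to 0.56 for COL8A1. These ends depended on the pseudocount of 1, since a pseudocount of 0.1 gave -2.37 for COL1A2 and 1.18 for LAMA2 as the ends, and 0.01 gave -3.63 and 1.41, for genes at very low levels. An absolute log2 fold change under 0.2 was found in 24 of the 40 members and in 8714 of the 14770 genes. Summed over the 40 genes, the mean level per library was 1031 ± 53.7 FPKM for Sh-NC (SD, n = 3) and 1054 ± 55.2 FPKM for Sh-YAP1 (SD, n = 3), and the groups overlapped.

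**Figure D1:**
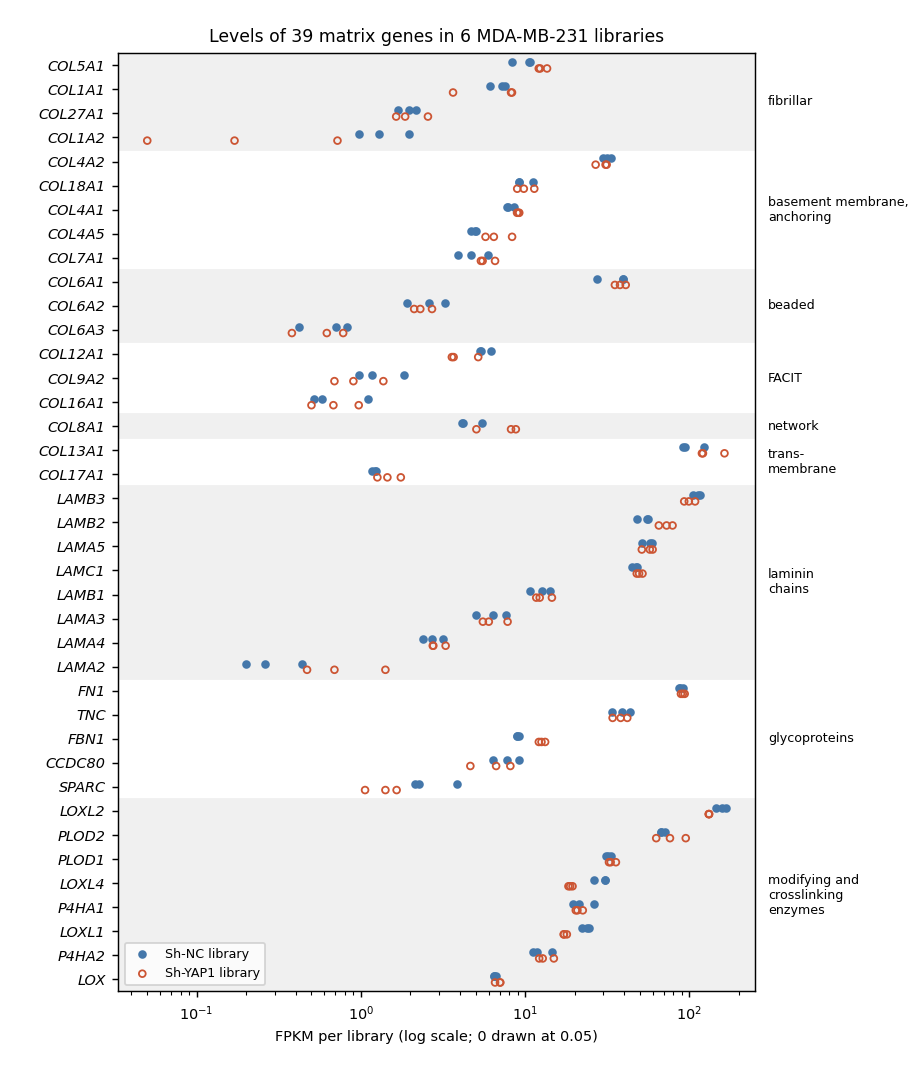
Level of 39 of the matrix genes in FPKM on a log axis, grouped by role, with 1 filled point for each Sh-NC library and 1 open point for each Sh-YAP1 library (3 and 3), and a value of 0 drawn at 0.05 FPKM. LOXL2, COL13A1 and LAMB3 had the highest mean levels and LAMA2 the lowest, and most genes show the points of both groups side by side, while the points of 13 genes are separate (LOXL1, LOXL2, LOXL4, FBN1, SPARC, LAMA2, LAMB2, COL1A2, COL4A1, COL4A5, COL5A1, COL12A1 and COL17A1).

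Of the 8 enzymes among the members, the LOX-like genes LOXL1, LOXL2 and LOXL4 had no overlap between the groups (37.5%, beside 29.4% of all genes), and LOX and the other enzymes overlapped. LOXL4 (ENSG00000138131, chromosome 10) was at 30.5, 30.7 and 26.2 FPKM in Sh-NC and at 18.8, 18.4 and 19.4 FPKM in Sh-YAP1. Every Sh-YAP1 library was below every Sh-NC library, and the log2 fold change was -0.60 (SE 0.085, Benjamini-Hochberg adjusted p = 0.0235, limma). LOXL1 (ENSG00000129038, chromosome 15), a lysyl oxidase known for its part in elastic fibre upkeep, was at 23.9, 24.6 and 22.4 FPKM in Sh-NC and at 17.3, 17.2 and 17.95 FPKM in Sh-YAP1. Its groups were also separate, with a log2 fold change of -0.41 (SE 0.07, adjusted p = 0.0346, limma). LOXL2 (ENSG00000134013, chromosome 8), which oxidises lysines of type IV collagen, had the highest mean level of all 40 members, 168, 159 and 146 FPKM in Sh-NC against 132, 131 and 132 FPKM in Sh-YAP1. The Sh-YAP1 libraries were within 1 FPKM of each other and below all Sh-NC libraries, and the log2 fold change of -0.25 (SE 0.071) had an adjusted p of 0.107 (limma), which missed the threshold. LOX itself (ENSG00000113083, chromosome 5) did not share this direction, at 6.50, 6.66 and 6.44 FPKM in Sh-NC and 7.06, 6.56 and 7.03 FPKM in Sh-YAP1. The groups of LOX overlapped and the 95% interval of its log2 fold change was -0.11 to 0.24.

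The calls of LOXL1 and LOXL4 depended on the libraries and the fit. With the replicate number as a block, neither was called (LOXL1 adjusted p = 0.153 and LOXL4 adjusted p = 0.131, limma), and with no filter on low values LOXL1 was at an adjusted p of 0.0513. When any 1 of the 6 libraries was left out, LOXL1 missed the threshold (adjusted p = 0.0639 to 0.117, limma), and LOXL4 missed it for every library but Sh-NC replicate 3 (adjusted p = 0.0306 to 0.0884 over the 6 fits), while the log2 fold changes over these fits were -0.45 to -0.38 for LOXL1 and -0.67 to -0.56 for LOXL4. LOXL1-AS1, an antisense RNA on the opposite strand of the LOXL1 locus that was looked at after the values of LOXL1 were seen, was at 23.7, 24.8 and 23.7 FPKM in Sh-NC and 14.5, 17.2 and 15.8 FPKM in Sh-YAP1 and also fell (log2 fold change -0.58, adjusted p = 0.0232, limma, 0.0549 to 0.085 with 1 library left out and 0.124 with the block). Whether the counting behind the FPKM used strand is not given in the sources used here, so reads of LOXL1 and LOXL1-AS1 cannot be told apart.

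**Figure D2:**
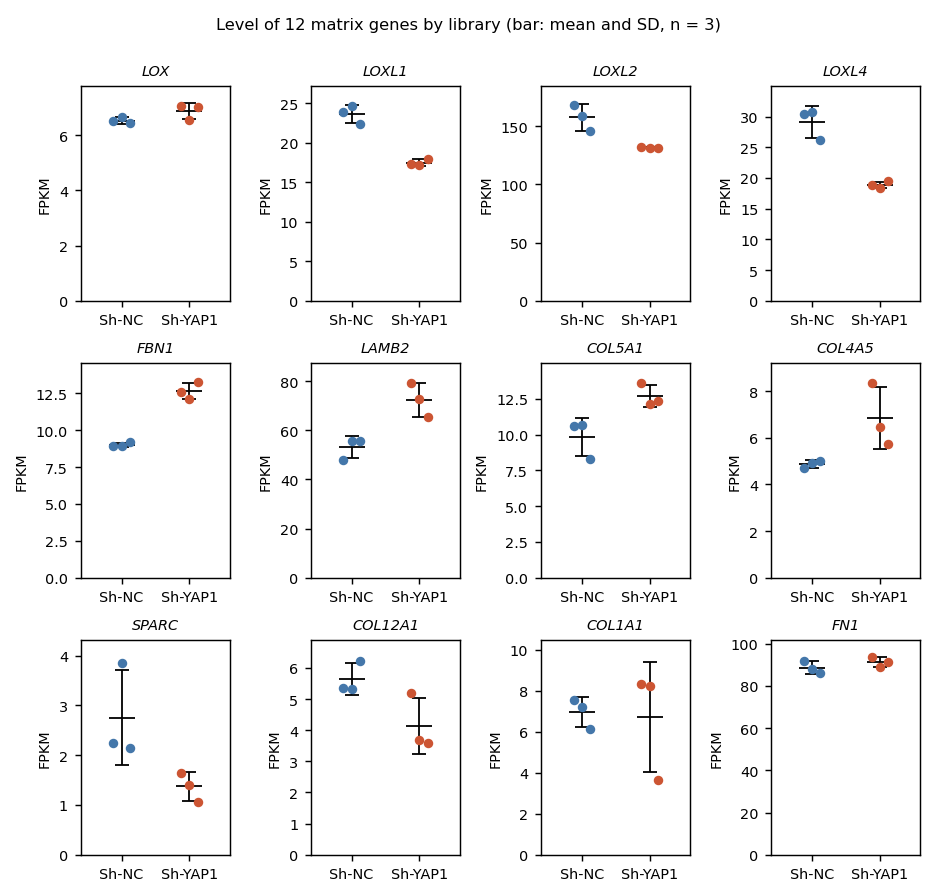
FPKM in each library for 12 matrix genes, with points for libraries, a long bar for the mean and whiskers for the SD (n = 3 per group), and every axis starting at 0. LOXL1, LOXL2 and LOXL4 were lower and FBN1, LAMB2, COL5A1 and COL4A5 higher in each Sh-YAP1 library than in all Sh-NC libraries, while LOX, COL1A1 and FN1 overlapped.

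Intracellular modifying enzymes showed no call. PLOD2, the lysyl hydroxylase of collagen telopeptides, was at 67.3, 67.0 and 71.5 FPKM in Sh-NC and 95.1, 62.9 and 76.2 FPKM in Sh-YAP1, where replicate 1 was the highest and replicate 2 the lowest of all 6 libraries. P4HA1, a catalytic subunit of prolyl 4-hydroxylase, was at 19.6, 26.4 and 21.3 FPKM in Sh-NC and 20.8, 20.4 and 22.5 FPKM in Sh-YAP1, with overlap and a 95% interval of -0.35 to 0.22. PLOD1 (31.1 to 35.7 FPKM over the 6 libraries) and P4HA2 (11.1 to 15.0 FPKM) overlapped as well, with log2 fold changes of 0.07 and 0.09. With 1 library left out these were 0.03 to 0.10 and 0.01 to 0.20, smallest without Sh-YAP1 replicate 3 for PLOD1 and without Sh-YAP1 replicate 1 for P4HA2. Without the transcript that differs most P4HA2 was at -0.12, a turn that the choice of transcript favours. All 8 enzymes of the list passed the minimum, and 2 of them were called, beside 3.38% of all genes.

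Among the glycoproteins, FBN1 rose. FBN1 (ENSG00000166147, chromosome 15) was at 8.90, 8.92 and 9.18 FPKM in Sh-NC and at 12.6, 12.1 and 13.2 FPKM in Sh-YAP1. The 3 Sh-NC libraries were nearly equal and all 3 Sh-YAP1 libraries were above them, with a log2 fold change of 0.45 (SE 0.072, Benjamini-Hochberg adjusted p = 0.0298, limma). Leaving out any 1 of the 6 libraries ended this call (adjusted p = 0.0779 to 0.105) with log2 fold changes of 0.42 to 0.48, as did the replicate block (adjusted p = 0.141, limma). Of its 9 transcripts 1 held 93.4% of the FPKM, and without that transcript the log2 fold change of the rest was 0.24 (adjusted p = 0.677, limma). Fibronectin (FN1, ENSG00000115414), a main adhesive protein of the interstitial matrix, was at 91.9, 88.02 and 86.0 FPKM in Sh-NC and at 93.7, 88.9 and 91.2 FPKM in Sh-YAP1. Its groups overlapped, and the 95% interval of the log2 fold change was -0.11 to 0.19. SPARC, a collagen-binding matricellular protein, was at 2.25, 3.85 and 2.15 FPKM in Sh-NC and at 1.65, 1.41 and 1.06 FPKM in Sh-YAP1. All 3 Sh-YAP1 libraries were below the lowest Sh-NC library, but the Sh-NC values were spread by replicate 2, and the log2 fold change of -0.64 (SE 0.196) had an adjusted p of 0.129 (limma). The log2 fold change of SPARC was -0.97 with a pseudocount of 0.01 and -0.38 without the transcript that differs most. Values of CCDC80, a secreted matrix-associated protein, were 6.38, 9.21 and 7.80 FPKM in Sh-NC and 8.13, 6.66 and 4.64 FPKM in Sh-YAP1, with overlap and a log2 fold change of -0.25 that ranged from -0.41 to -0.06 with 1 library left out, the smallest without Sh-YAP1 replicate 3. TNC (tenascin-C) was at 33.8 to 43.3 FPKM with a log2 fold change of -0.02 (-0.11 to 0.07 with 1 library left out) and overlap.

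The promoters of FBN1 and LOXL4 are shown because these genes were called in opposite directions. LOXL1 is not shown, since its upstream bases lie within GENCODE 29 transcripts, and its window held neither motif described here. The bases shown are upstream of the RefSeq gene start (GRCh38.p14) and lie in no GENCODE 29 transcript of the gene. They are written 5′ to 3′ in the direction of the gene, with the core TEAD motif CATTCC on either strand in capitals. Bases just after the RefSeq start were found in a GENCODE 29 transcript of LOXL4, but not in one of FBN1. For FBN1 it is therefore not shown that the bases lie directly upstream of a GENCODE transcript. FBN1 (chr15:48644971-48645220, minus strand, 250 bases) holds it once, as its reverse complement GGAATG. LOXL4 (chr10:98268251-98268444, minus strand, 194 bases) holds neither CATTCC nor TGANTCA, the motif of AP-1 factors, and is 88.1% G and C beside 69.6% for FBN1.
FBN1: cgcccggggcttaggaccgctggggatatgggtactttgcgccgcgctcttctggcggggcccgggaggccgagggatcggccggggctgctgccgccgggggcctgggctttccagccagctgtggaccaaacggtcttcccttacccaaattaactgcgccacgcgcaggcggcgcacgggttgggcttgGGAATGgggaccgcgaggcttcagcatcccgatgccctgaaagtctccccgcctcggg
LOXL4: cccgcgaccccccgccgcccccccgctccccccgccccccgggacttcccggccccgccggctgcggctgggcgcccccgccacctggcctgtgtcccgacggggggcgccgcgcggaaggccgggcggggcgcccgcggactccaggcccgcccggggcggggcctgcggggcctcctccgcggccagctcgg
In RefSeq windows from 250 bases before to 50 bases after a gene start, which were found for 34 of the 40 members and for 27305 genes in all, CATTCC on either strand was present in 5 members (14.7%: FBN1, COL12A1, LAMA2, P4HA2 and SPARC) and in 16.7% of all genes. TGANTCA was present in 2 members (5.88%: LAMA3 and LAMB3) and in 9.37% of all genes. The shares of the members were thus near those of all genes, and a match of letters is not a binding site. COL1A1, COL1A2, COL6A1, COL8A1 and LOXL2 were among those with no entry in the set of windows used here, which does not mean that RefSeq lacks a start for them.

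Laminins are heterotrimers of an alpha, a beta and a gamma chain, and 9 of 12 laminin genes were members. The most abundant chains were LAMB3, LAMA5, LAMB2 and LAMC1. LAMB2 (ENSG00000172037, chromosome 3), the beta2 chain, was at 47.99, 55.8 and 55.6 FPKM in Sh-NC and at 79.04, 72.7 and 65.2 FPKM in Sh-YAP1. All Sh-YAP1 libraries were above all Sh-NC libraries, and the log2 fold change of 0.44 (SE 0.1) had an adjusted p of 0.0711 (limma), which missed the threshold. The beta1 chain LAMB1, at 10.6, 14.2 and 12.8 FPKM in Sh-NC and 14.6, 12.3 and 11.7 FPKM in Sh-YAP1, overlapped with a 95% interval of -0.27 to 0.35. LAMB3, a beta chain of epithelial anchorage, was at 116, 113 and 105 FPKM in Sh-NC and 93.1, 99.3 and 108 FPKM in Sh-YAP1. Its Sh-YAP1 mean was lower but replicate 3 lay inside the Sh-NC range (log2 fold change -0.15, adjusted p = 0.335, limma). Without the transcript that differs most, the log2 fold change of LAMB3 was -0.04 (adjusted p = 0.833, limma). The gamma1 chain LAMC1 was at 47.98, 47.1 and 45.04 FPKM in Sh-NC and 51.9, 47.9 and 49.4 FPKM in Sh-YAP1, and the alpha5 chain LAMA5 at 57.3, 59.2 and 51.8 and 59.8, 51.4 and 57.5 FPKM. Both overlapped, with 95% intervals of -0.07 to 0.25 and -0.21 to 0.21. LAMA3, an alpha chain of epithelial laminins, and LAMA4, an alpha chain of vessel laminins, overlapped with log2 fold changes of 0.02 and 0.07. With 1 library left out these were -0.11 to 0.15 and 0.0019 to 0.15, and without the transcript that differs most -0.69 and -0.09. Leaving out the transcript with the largest difference, a rise in both genes, favours such a turn of sign. LAMA2, the alpha chain of muscle laminins, had the lowest mean of all members, 0.26, 0.20 and 0.44 FPKM in Sh-NC and 0.69, 0.47 and 1.41 FPKM in Sh-YAP1, and reached the minimum through Sh-YAP1 alone, so that its lack of overlap was favoured by the filter. Over the 9 chains the mean sum was 297 ± 9.56 FPKM for Sh-NC (SD, n = 3) and 309 ± 6.32 FPKM for Sh-YAP1 (SD, n = 3).

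Of the 5 basement membrane and anchoring collagens, none was called and 2 had no overlap, beside 29.4% of all genes. COL4A1 and COL4A2 encode the chains of the common type IV network and start head to head on chromosome 13, their RefSeq starts 126 bases apart, on opposite strands. COL4A2 was at 31.4, 33.4 and 29.96 FPKM in Sh-NC and 26.9, 31.4 and 30.9 FPKM in Sh-YAP1, with overlap and a log2 fold change of -0.09 (-0.13 to -0.02 with 1 library left out, smallest without Sh-YAP1 replicate 1). COL4A1 was at 8.53, 7.89 and 7.75 FPKM in Sh-NC and 9.21, 9.09 and 8.93 FPKM in Sh-YAP1. Its groups were separate and close, with a log2 fold change of 0.15 (SE 0.075, adjusted p = 0.285, limma). The transcript that differs most held 84.0% of its FPKM and was itself higher without overlap (6.8, 7.0 and 5.79 against 7.81, 8.12 and 7.66 FPKM). Without that transcript the value was -0.17, a turn that the choice of transcript favours. COL4A5, a chain of the minor type IV networks (ENSG00000188153, chromosome X), was at 4.69, 4.94 and 5.0 FPKM in Sh-NC and 8.33, 6.45 and 5.74 FPKM in Sh-YAP1. The Sh-NC values were nearly equal and the Sh-YAP1 values spread above them, led by replicate 1 (log2 fold change 0.40, adjusted p = 0.147, limma). Without the transcript that differs most the log2 fold change was -0.11, which the choice of that transcript again favours. COL18A1, the source of endostatin, was at 8.95 to 11.4 FPKM and COL7A1, the collagen of anchoring fibrils, at 3.91 to 6.56 FPKM, both with overlap.

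Of 11 fibrillar collagen genes, 4 passed the minimum in these cells. COL5A1 (ENSG00000130635, chromosome 9), a collagen that seeds thin fibrils, was at 10.6, 10.7 and 8.30 FPKM in Sh-NC and 13.6, 12.1 and 12.4 FPKM in Sh-YAP1. Its groups were separate, with a log2 fold change of 0.34 (SE 0.113, adjusted p = 0.151, limma). It turned to -0.66 (adjusted p = 0.572, limma) without the transcript that differs most, the one with 81.1% of the FPKM. That turn is favoured by the choice of transcript and was led by Sh-NC replicate 1. There another transcript was at 7.01 FPKM, against at most 0.02 FPKM in every other library. Type I collagen is built of chains from COL1A1 and COL1A2. COL1A1 was at 7.52, 7.22 and 6.15 FPKM in Sh-NC and 8.32, 8.21 and 3.64 FPKM in Sh-YAP1, where replicates 1 and 2 lay above and replicate 3 below the Sh-NC range. COL1A2 was at 1.28, 1.96 and 0.97 FPKM in Sh-NC and at 0.72 and 0.17 FPKM in Sh-YAP1 replicates 1 and 2, and was listed at 0 in replicate 3. The groups of COL1A2 were separate at a very low level, where the filter favoured a lack of overlap, since the Sh-YAP1 mean was under the minimum, and the log2 fold change of -0.91 (SE 0.244) had an adjusted p of 0.101 (limma). The 7 fibroblast markers examined, which include COL1A1, COL1A2 and COL3A1, summed to 9.12 to 12.2 FPKM in Sh-NC and to 5.34 to 11.5 FPKM in Sh-YAP1. Of these 7, 4 reached 1 FPKM in any library, among them PDGFRB at 1.15 to 1.71 FPKM in all 6 libraries, while PDGFRA, DCN and LUM were at most at 0.08, 0.35 and 0.54 FPKM. The part of such cells in the values of COL1A1 and COL1A2 was not tested. In bulk RNA, fewer cells that express a gene and less RNA per cell cannot be told apart. COL27A1 was at 1.64 to 2.56 FPKM with overlap.

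The remaining collagens were led by COL13A1, a transmembrane collagen of cell adhesions and the member with the second highest level. COL13A1 was at 123, 94.3 and 90.9 FPKM in Sh-NC and 164, 121 and 119 FPKM in Sh-YAP1. Replicate 1 was the highest of both groups and the groups overlapped by that library (log2 fold change 0.39, SE 0.165, adjusted p = 0.238, limma). With 1 library left out the log2 fold change was 0.24 to 0.52, lowest without Sh-YAP1 replicate 1 and highest without Sh-NC replicate 1. COL17A1, the hemidesmosomal collagen, was at 1.23, 1.22 and 1.17 and 1.26, 1.75 and 1.45 FPKM, with the lowest Sh-YAP1 value just above the highest Sh-NC value. COL12A1, a collagen on the surface of fibrils, was at 5.36, 5.31 and 6.23 FPKM in Sh-NC and 5.18, 3.67 and 3.58 FPKM in Sh-YAP1. All Sh-YAP1 libraries were lower, replicate 1 by little (log2 fold change -0.38, adjusted p = 0.186, limma). Without the transcript that differs most, which held 70.9% of the FPKM of COL12A1, the log2 fold change was -0.08 (adjusted p = 0.926, limma). COL8A1, a network collagen of blood vessels and cornea, had a log2 fold change of 0.56 (SE 0.203, adjusted p = 0.181, limma), from 4.16, 5.47 and 4.14 FPKM in Sh-NC and 8.21, 5.05 and 8.78 FPKM in Sh-YAP1, where replicate 2 lay inside the Sh-NC range. Without the transcript that differs most, the log2 fold change of COL8A1 was 0.13 (adjusted p = 0.714, limma). Of the beaded filament collagens, COL6A1 was at 27.4 to 41.0 FPKM, COL6A2 at 1.90 to 3.24 FPKM and COL6A3 at 0.38 to 0.82 FPKM, each with overlap. COL9A2 and COL16A1, which like COL12A1 belong to the fibril-associated collagens, were at 0.69 to 1.83 and 0.50 to 1.11 FPKM, with overlap. Over the 18 collagens 0 had an adjusted p under 0.05 (limma), beside 3.38% of all genes. An unadjusted p under 0.05 was found in 5 of them, beside 3241 of the 14770 genes, and 6 had no overlap (33.3%, beside 29.4% of all genes), and both counts hold COL1A2, which passed the minimum through Sh-NC alone.

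**Figure D3:**
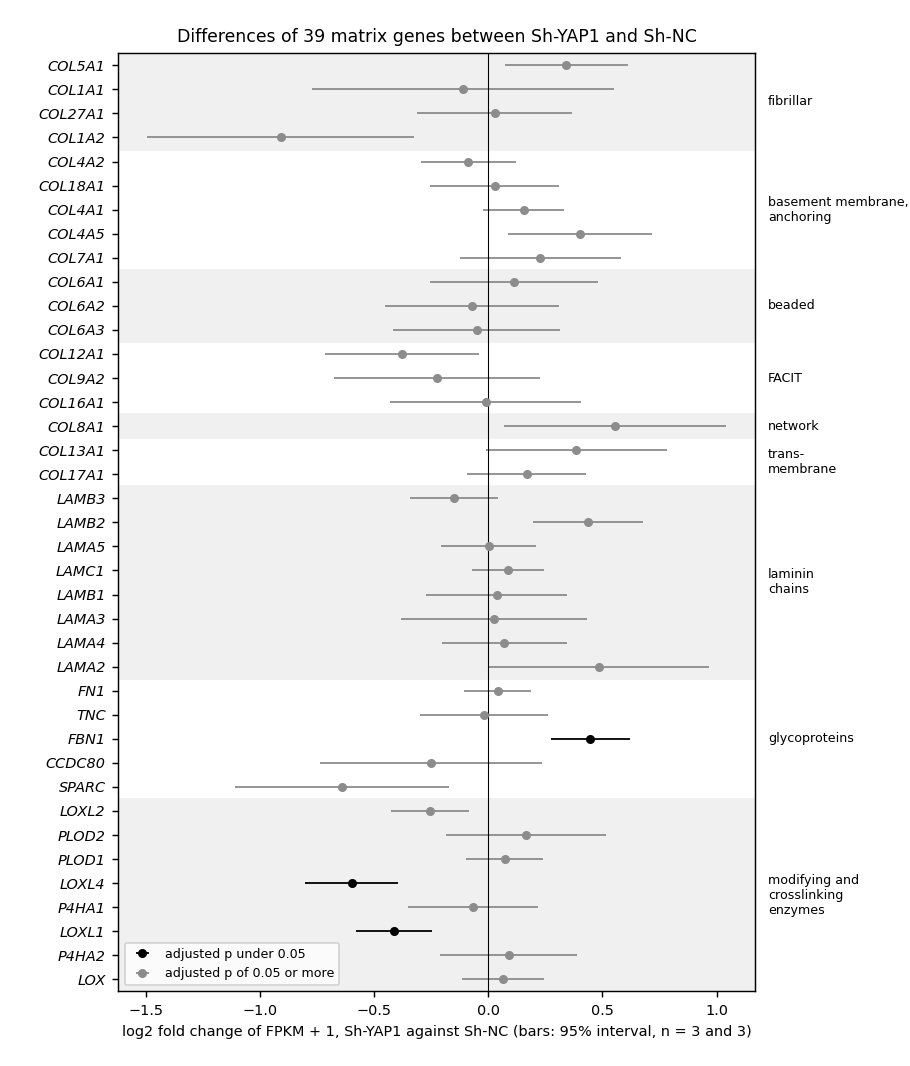
Log2 fold change of FPKM + 1 in Sh-YAP1 against Sh-NC for 39 of the matrix genes grouped by role, with points for the estimate, lines for the 95% interval from limma (n = 3 and 3) and black for an adjusted p under 0.05. FBN1 is black on the right of 0 and LOXL1 and LOXL4 are black on the left, and the widest intervals belong to COL1A1 and COL1A2.

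The 33 genes below the minimum were not tested. The lowest members by mean were LAMA2 at 0.578 and COL6A3 at 0.622 FPKM, and the highest genes left out were COL3A1 at 0.437 and COL9A3 at 0.360 FPKM. COL3A1 was at 1.06, 0.42 and 0.26 FPKM in Sh-NC and 0.17, 0.58 and 0.13 FPKM in Sh-YAP1. Of the 33 genes, 23 did not reach 0.1 FPKM in any library, and COL2A1, COL6A5, COL6A6, COL9A1, COL19A1, COL22A1, COL23A1 and COL25A1 were listed at 0 in all 6. The others were LAMA1, LAMB4, LAMC3, BGN, LUM, POSTN, FBN2, COL4A3, COL4A4, COL4A6, COL5A2, COL5A3, COL8A2, COL10A1, COL11A1, COL11A2, COL14A1, COL15A1, COL20A1, COL21A1, COL24A1, COL26A1 and COL28A1.

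Genes that fold, process or bind these proteins were read from a list of 43 partners, of which 30 were tested. LTBP1, which tethers latent TGF-beta to fibrillin and fibronectin, rose from 4.93, 3.70 and 3.83 FPKM in Sh-NC to 11.1, 10.0 and 10.2 FPKM in Sh-YAP1. The groups were far apart relative to their spread, with a log2 fold change of 1.15 (SE 0.113, adjusted p = 0.00978, limma). TGFBI, a secreted protein that binds collagens, rose from 15.2, 17.95 and 16.2 to 24.8, 26.1 and 27.6 FPKM (log2 fold change 0.64, SE 0.086, adjusted p = 0.0211, limma). P3H2, the prolyl 3-hydroxylase known to act on basement membrane collagens, fell from 35.8, 35.2 and 35.9 to 25.7, 26.8 and 25.1 FPKM (log2 fold change -0.45, SE 0.063, adjusted p = 0.023, limma). LTBP1 was still called when any 1 of the 6 libraries was left out (adjusted p = 0.0212 to 0.0465), while TGFBI (0.0521 to 0.0792) and P3H2 (0.0637 to 0.0866) missed the threshold in each of these fits (limma). With the replicate number as a block, none of the 3 was called (LTBP1 adjusted p = 0.0996, TGFBI 0.121 and P3H2 0.132, limma). Of the 30 partners 3 were called (10.0%, beside 3.38% of all genes), 14 had no overlap (46.7%, 5 higher and 9 lower, beside 29.4% of all genes), and the median log2 fold change was -0.03. Close to the threshold were 3 genes singled out after their values were seen. LOXL3, the remaining LOX-like gene, was at 2.84, 2.39 and 1.43 FPKM in Sh-NC and 0.63, 0.79 and 0.61 FPKM in Sh-YAP1 (adjusted p = 0.051, limma). LTBP2 was at 2.36, 2.12 and 1.90 and 3.20, 3.71 and 4.19 FPKM (adjusted p = 0.051, limma), and HSPG2, the basement membrane proteoglycan perlecan, at 10.4, 9.81 and 9.73 and 8.06, 6.94 and 7.21 FPKM (adjusted p = 0.063, limma). The collagen chaperone SERPINH1 and the prolyl hydroxylase subunit P4HB had log2 fold changes of -0.21 and 0.22 without a call.

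**Figure D4:**
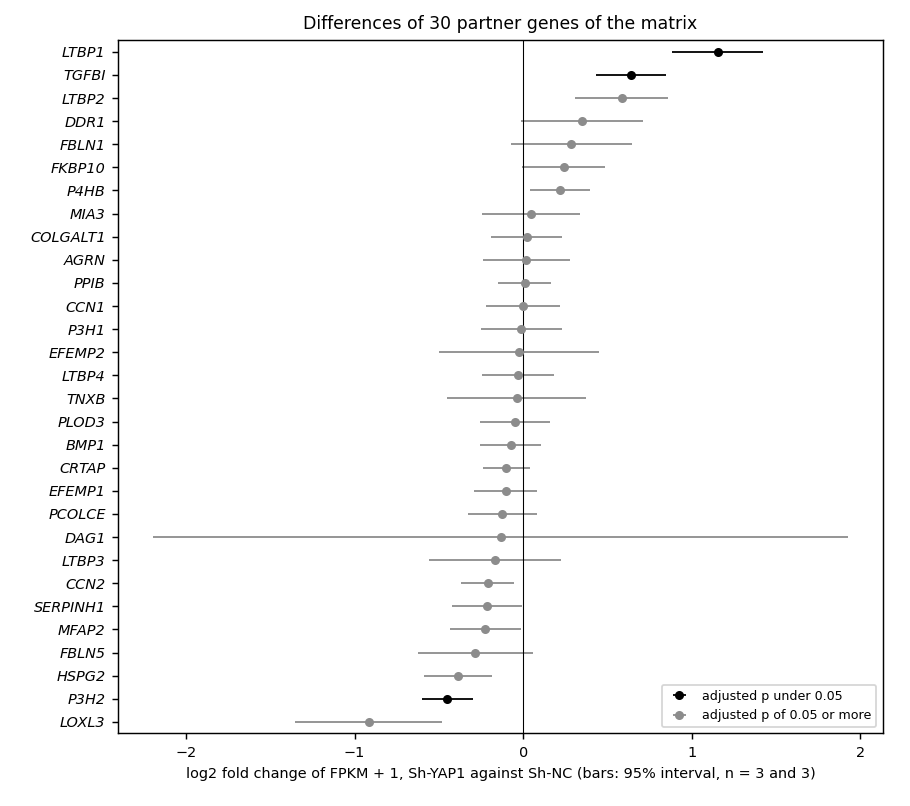
Log2 fold change of FPKM + 1 in Sh-YAP1 against Sh-NC for the 30 partner genes tested, ordered by value, with 95% intervals from limma (n = 3 and 3) and black for an adjusted p under 0.05. LTBP1 and TGFBI are black on the right and P3H2 on the left, and the widest interval is that of DAG1, whose libraries ranged from 11.2 to 73.3 FPKM.

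Ratios within a library compare related genes free of any scaling of the library. The 8 ratios given were chosen after the values were seen, so they are a description with no test, and their lack of overlap follows from that choice. The ratio of LOXL4 to LOX was 4.69, 4.61 and 4.06 in Sh-NC and 2.66, 2.80 and 2.77 in Sh-YAP1. LOXL1 to LOX was 3.61 ± 0.121 (SD, n = 3) in Sh-NC and 2.54 ± 0.0873 in Sh-YAP1, and LOXL2 to LOX was 24.1 ± 1.63 and 19.1 ± 0.752. LAMB2 to LAMB1 was 4.51, 3.94 and 4.36 in Sh-NC and 5.43, 5.92 and 5.58 in Sh-YAP1. COL4A2 to COL4A1 was 3.93 ± 0.279 in Sh-NC and 3.28 ± 0.31 in Sh-YAP1, and FBN1 to FN1 was 0.102 ± 0.00498 and 0.139 ± 0.00576. LOXL3 to LOX (0.339 ± 0.109 and 0.0988 ± 0.0188) and P3H2 to P3H1 (1.71 ± 0.234 and 1.24 ± 0.0347) were lower in Sh-YAP1.

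**Figure D5:**
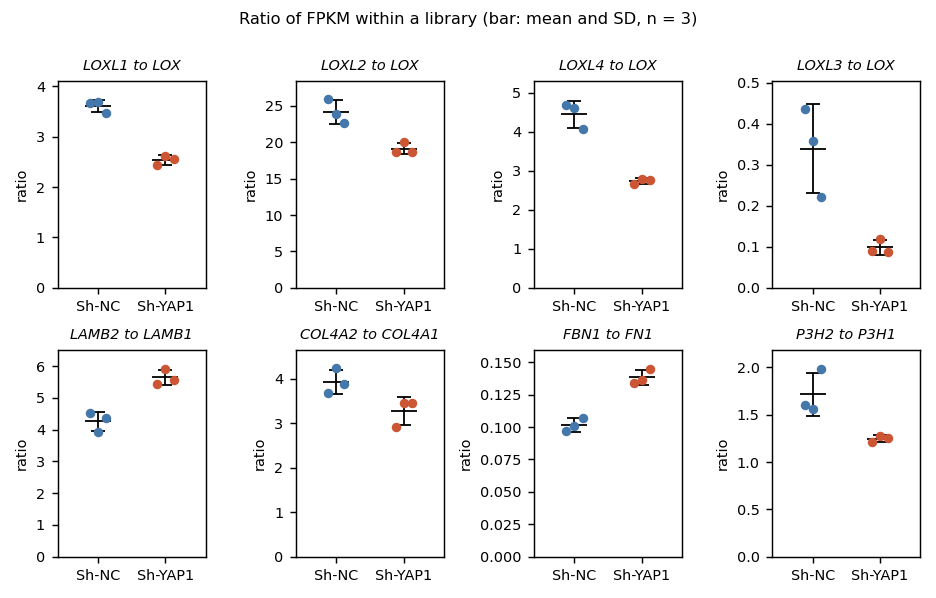
Ratio of FPKM of related genes within each library for 8 pairs chosen after their values were seen, with points for libraries, a long bar for the mean and whiskers for the SD (n = 3 per group), and every axis starting at 0. The ratios of LAMB2 to LAMB1 and FBN1 to FN1 were higher, and the other 6 lower, in each Sh-YAP1 library than in all Sh-NC libraries.

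The gene values above are sums over transcripts. The 40 members have 477 transcripts, from 1 for LOXL4 to 35 for COL13A1, and 13 members had 1 transcript with over 80% of the FPKM. Of 157 member transcripts that averaged 0.5 FPKM or more, 33 had no overlap between the groups (21.0%, 21 higher and 12 lower), beside 16.2% of all 42312 such transcripts. The main transcripts of LOXL1 (21.7, 21.8 and 19.8 FPKM in Sh-NC against 15.9, 16.1 and 16.6 FPKM in Sh-YAP1), of FBN1 (8.23, 8.66 and 8.52 against 12.2, 11.7 and 11.4 FPKM) and of LAMB2 (30.3, 29 and 25 against 36.1, 35.8 and 37.1 FPKM) differed in the same direction as their genes. They held 90.8%, 93.4% and 51.4% of the FPKM of these genes, so for LOXL1 and FBN1 the same direction follows from the share. The main transcript of LAMB1, with 60.9% of its FPKM, was also higher without overlap (6.84, 6.78 and 6.09 against 9.49, 8.64 and 8.53 FPKM), although the LAMB1 totals overlapped. In FN1, whose totals overlapped, 4 transcripts were higher in every Sh-YAP1 library. One of these was at 1.00, 0 and 0.02 FPKM in Sh-NC and 7.90, 6.48 and 6.58 FPKM in Sh-YAP1. In LAMB3, 1 transcript was lower (13.1, 25.7 and 11.7 against 6.61, 10.5 and 8.52 FPKM) and another higher (2.79, 2.88 and 2.47 against 8.65, 3.29 and 9.79 FPKM). The transcripts of COL13A1 differed in both directions, with 6 higher and 1 lower without overlap. Some of the 6 were separate only by values near 0. One was at 0 in every Sh-NC library and at 10.9, 0.08 and 1.37 FPKM in Sh-YAP1, and another at 0 and at 2.89, 0.02 and 0.4 FPKM.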

How the data were processed

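RNA-sequencing libraries of MDA-MB-231 cells, 3 Sh-NC and 3 Sh-YAP1 from day 3, were used. The authors deposited FPKM with 2 decimals for 229420 transcripts per library, with gene identifiers. Their processing notes name HISAT2 2.0, Bowtie 0.12.2 and the build hg19, with no role or order. The quantification tool, annotation and filters are not given in the sources used here. No read counts and no transcript names come with the values, so depth and counting error are unknown, and count models were not used.

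FPKM of all transcripts of a gene were summed. Gene type came from GENCODE 29, which held 58394 of the 60612 identifiers. Symbols came from a separate list of gene names, and from GENCODE 29 where that list held none, so that 60588 identifiers had a symbol. Since the build of GENCODE 29 differs from hg19, no coordinates are given for the measured transcripts. Promoter sequences and coordinates and gene starts are those of RefSeq GRCh38.p14. Genes averaging 0.5 FPKM or more were compared as log2(FPKM + 1), a scale that makes changes of low genes smaller, with limma 3.58.1 (lmFit, eBayes with trend, no covariates, two-sided) in R 4.3.3. Adjusted p are Benjamini-Hochberg over all 14770 genes, and intervals are at 95%. In an exact two-sided permutation test of single genes, the members without overlap had p = 0.1, the smallest it allows with 3 against 3. The fit was tested on simulated data with changes larger than those of the called members, so that test does not cover changes of their size. Summaries and plots were made in Python 3.11.15.

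The members, the lists of partners and markers, and the tests were chosen with earlier results of these data known. Values in every library are given for called members, the 8 members with the highest mean, members without overlap and an absolute log2 fold change of at least 0.3, and 10 reference members (FN1, COL4A1, COL4A2, LAMB1, LAMC1, SPARC, LOX, PLOD2, P4HA1, CCDC80). YAP1, CCN1, CCN2 and called partners are named besides. One member, counted in the totals, is not reported here by name. COL1A1, COL3A1, COL8A1 and COL17A1 were given in full after their values were seen, as were LOXL1-AS1, LOXL3, LTBP2, HSPG2, SERPINH1, P4HB, P3H1, DAG1 and single transcripts. Alternatives covered the pseudocount, quantile normalization, median centring, no trend, other minimums, omission of each library, gene sums with transcripts removed, and a block for the replicate number.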

Additional observations from a re-analysis of the deposited data

How the results depend on the processing

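Each member was refitted under at most 16 alternatives, and the log2 fold changes of LOXL1, LOXL4 and FBN1 kept their sign in all of them that could be fitted. The 3 calls among members (limma, Benjamini-Hochberg) were also found with pseudocounts of 0.1 and 0.01, quantile normalization, median centring, no trend, a mean of at least 1 FPKM and sums over transcripts of at least 0.1 FPKM. Without a filter 232 genes in place of 499 were called and 2 members, LOXL1 reaching an adjusted p of 0.0513. With each library left out in turn, 78 to 171 genes and 0 to 1 members were called, fits with fewer samples. Under a replicate block, 1 gene (YAP1) and 0 members were called (unadjusted p under 0.05 in 2779 genes and 11 members). Libraries with a common number deviated from their groups with correlations of -0.0285, 0.0621 and 0.0042. These values cannot show whether libraries with a common number shared a culture or a batch, which the labels do not give. Without the transcript that differs most (39 members, since LOXL4 has 1 transcript), 1 member was called (LOXL1), 8 had no overlap and the median log2 fold change was -0.088, which follows from removing the transcript with the largest difference.

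Of 633 refits of single members, 41 changed sign, in 19 members without a call. Quantile normalization gave 0.02 for TNC and -0.0016 for COL27A1, median centring -0.02 for LAMA5, and sums over transcripts of at least 0.1 FPKM -0.00048 for LAMA5. Without the transcript that differs most, values were -0.16 for PLOD2, -0.70 for COL6A1, 0.32 for P4HA1, -0.12 for P4HA2, -0.47 for LAMB1, -0.66 for COL5A1, -0.15 for COL18A1, -0.17 for COL4A1, -0.69 for LAMA3, -0.11 for COL4A5, -0.17 for COL7A1, -0.09 for LAMA4, 0.17 for COL6A2 and -0.09 for COL27A1. Leaving out 1 library gave ranges of -0.11 to 0.07 for TNC, -0.07 to 0.12 for LAMB1, -0.10 to 0.12 for COL27A1, -0.15 to 0.05 for P4HA1, -0.06 to 0.11 for COL18A1, -0.11 to 0.15 for LAMA3, -0.22 to 0.06 for COL6A2, -0.15 to 0.05 for COL6A3, -0.05 to 0.06 for LAMA5, -0.06 to 0.20 for COL6A1, -0.11 to 0.14 for COL16A1 and -0.28 to 0.22 for COL1A1. Removing the transcript with the largest difference favours a change of sign by the choice of transcript. Other causes of these moves were not tested.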

Other observations

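Several matrix genes held large differences between libraries of the same group at the transcript level, which the sums over transcripts do not show. In FN1, a transcript at 12.8, 10.0 and 10.6 FPKM in Sh-YAP1 was at 1.52, 9.13 and 0.02 FPKM in Sh-NC, where replicate 2 alone came near the Sh-YAP1 values. In COL13A1, a transcript at 53.5, 34.8 and 36.6 FPKM in Sh-YAP1 was at 2.75, 29.6 and 31.6 FPKM in Sh-NC, replicate 1 being the lowest. In COL5A1, the transcript with 81.1% of the FPKM was at 2.75 FPKM in Sh-NC replicate 1 and at 9.61 and 7.53 FPKM in the other Sh-NC libraries, against 12.1, 11.4 and 11.5 FPKM in Sh-YAP1. DAG1 (dystroglycan), a laminin receptor, also differed within groups at the gene level, with 73.3, 62.5 and 11.2 FPKM in Sh-NC and 12.1, 64.5 and 49.6 FPKM in Sh-YAP1, so that 1 library of each group stood far below the others.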
